A study of Homo sapiens with 14 samples.

Results

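Wide KMT2D peaks that stood alone or with a single neighbour are described here. They came from a ChIP-seq peak list of SCC23 cells, an established human cell line of head and neck squamous cell carcinoma. Peaks of chromosomes 1 to 22 were joined into groups wherever the gap between neighbours was at most 12500 bp. The peaks were selected on their measured width and on the gaps to their neighbours, being wider than 1000 bp in groups of 1 or 2 peaks. This gave 313 wide peaks, 188 in groups of 1 and 125 in groups of 2, among 12989 peaks of chromosomes 1 to 22 and 13808 in the whole list. They made up 42.6% of the 735 wide peaks of these chromosomes. The other 422 lay in groups of 3 or more. The comparison set was the 8298 peaks of at most 1000 bp in groups of 1 or 2, called narrow peaks below.

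The study asked where KMT2D sits on chromatin when squamous carcinoma cells lose glucose, and it labelled 14 ChIP-seq samples, 1 per antibody or input and genotype. Only the peak list of the anti-KMT2D library from Wild Type (KMT2D-WT) cells under glucose deprivation for 6 hours was analysed here. A control guide to LacZ appears in the labelled knockout protocol, and the labels do not say whether these cells had received it. There were no replicates, so no difference between sets of peaks was tested across libraries. Intervals are at the 95% level and cover counting error only. Fold enrichment, q-value, fragment number, summit position and width all come from a single ChIP pileup. Differences in these measures between wide and narrow peaks are therefore descriptions.

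KMT2D, also known as MLL4, is a histone methyltransferase that places methyl groups on lysine 4 of histone H3. It works in a complex with the demethylase UTX and is best known for priming enhancers with H3K4me1, which precedes H3K27 acetylation by CBP and p300. Enhancers with many neighbouring binding sites are often stitched into clusters, the usual first step in defining super-enhancers. A wide peak outside such clusters is a long called region without that crowd of neighbours. The list gives a summit for each peak but no signal along its width. Positions are in GRCh37 and counted from 1. No GRCh37 genome or gene annotation was at hand, so no gene, promoter or sequence was assigned to any peak, and the cell type was not checked against markers.

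Most of these peaks were only moderately wide. The median was 1219 bp (interquartile range 1096 to 1436 bp). Of the 313, 166 (53.0%) were up to 1250 bp, 83 were over 1250 and up to 1500 bp, 45 were over 1500 and up to 2000 bp, and 19 (6.07%) were over 2000 bp. The threshold cut through a continuum. Within 5 bp above it lay peaks of 1002, 1003 and 1005 bp, with fold enrichments of 3.76, 7.92 and 4.14. Within 5 bp below it lay narrow peaks of 997, 998, 999 and 1000 bp, with fold enrichments of 5.66, 3.02, 6.68 and 7.20. The nearest neighbour of a wide peak standing alone was at least 12642 bp away, and the largest gap inside a group of 2 with a wide peak was 12127 bp.

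The widest peak spanned 4443 bp at chr1:68148303-68152745 and belonged to a group of 2. Its fold enrichment, the ratio of ChIP signal to local background at the summit, was 12.7 over 83 ChIP fragments. In groups of 2 it was followed by chr12:120666629-120670009 (3381 bp), where the fold enrichment was 16.3. The next peaks were chr3:159480895-159483876 (2982 bp, fold enrichment 7.19), chr12:53318807-53321456 (2650 bp, 8.96) and chr2:192035221-192037657 (2437 bp, 12.9). These 3 had their partner within 365, 269 and 189 bp, so each lay almost against a second peak.

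Among wide peaks standing alone, the widest was chr22:36724370-36727928, with 3559 bp, a fold enrichment of 14.9 and 115 fragments. No other peak lay within 33036 bp of it. The next was chr17:19654072-19656743 (2672 bp, fold enrichment 8.28). Then came chr11:705674-708214 (2541 bp, 6.68), chr11:101980483-101982982 (2500 bp, 7.61) and chr18:3623461-3625889 (2429 bp, 13.4). At the second of the chromosome 11 peaks the local background, which MACS2 takes from the control library, was 3.68 times its genome-wide level. At the other 4 it lay between 1.34 and 2.34 times that level.

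Fold enrichment at the summit was higher in the wide peaks than in the narrow ones. The lowest wide peak had a value of 2.44, the median was 7.18 (95% interval of the median 6.65 to 7.61) and the highest was 22.5. Narrow peaks in groups of the same size had a median of 3.89 and a range of 1.18 to 19.3, so the sets overlapped over most of their range. Wide peaks in groups of 3 or more had a median of 8.19 (7.56 to 8.57). A fold enrichment of at least 10 was reached by 74 wide peaks (23.6%, 95% Wilson interval 19.3 to 28.7%). This compared with 2.23% of narrow peaks and a background of 4.44% of all peaks of chromosomes 1 to 22. Groups of 1 and groups of 2 were close in this measure, with medians of 7.0 (6.31 to 7.56) and 7.56 (6.53 to 8.30).

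**Figure D1:**
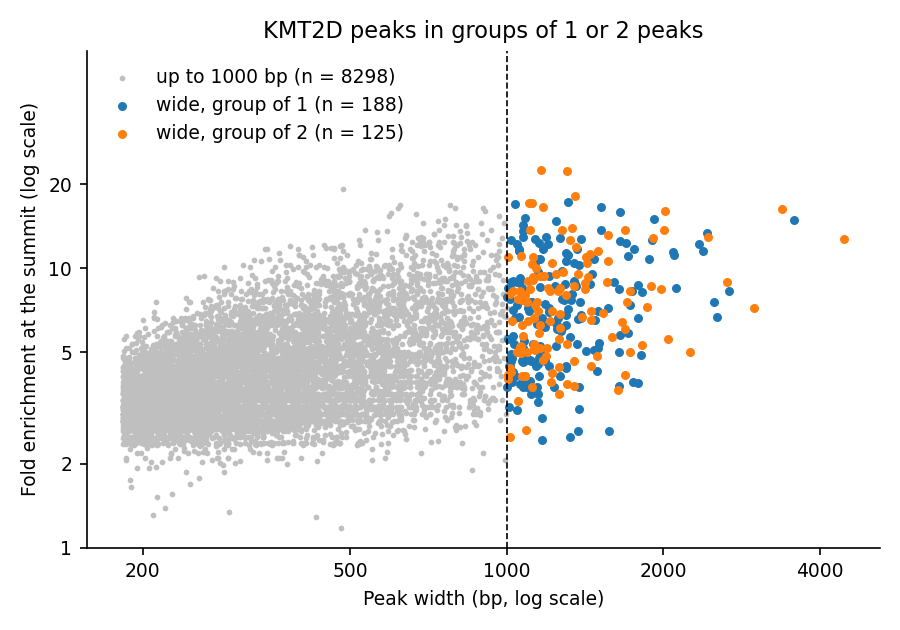
Each point is a KMT2D peak in a group of 1 or 2, placed by its width (bp, log scale) and its fold enrichment at the summit (log scale). Grey points are the 8298 narrow peaks, blue points the 188 wide peaks standing alone and orange points the 125 in groups of 2, and the dashed line marks 1000 bp. Wide peaks run from a fold enrichment of 2.44 to 22.5 without a gap to the narrow ones.

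Many more reads lay under the wide summits. A median of 45 ChIP fragments covered the summit of a wide peak (interquartile range 31 to 67, range 15 to 313), against 23 for narrow peaks, while the genome-wide background corresponds to 2.88 fragments. Of the wide peaks, 295 had a q-value of 0.05 or less (94.2%, 95% Wilson interval 91.1 to 96.3%), read against a background of 58.8% of all peaks of chromosomes 1 to 22. Among narrow peaks the share was 54.3%. At the stricter limit of 0.01 it was 87.2% of wide peaks (273), against 43.0% of narrow peaks and a background of 48%. Wide peaks in groups of 3 or more, at 95.3% (92.8 to 96.9%), were close to the wide peaks outside them.

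Taller summits were more often wide. Among peaks in groups of 1 or 2, 22 of 3340 peaks with up to 20 fragments were wide (0.659%, 95% Wilson interval 0.435 to 0.995%). The share rose to 8.32% at over 40 and up to 60 fragments. It reached 29.7% (21.3 to 39.7%) at over 80 and up to 100 fragments and 32.1% (21.1 to 45.5%) above 100 fragments, where most peaks were still narrow. Binned by fold enrichment, wide peaks made up 0.485% (0.235 to 0.997%) of the peaks with a fold enrichment of 3 or less. Above 15 they were 14 of 26 peaks (53.8%, 35.5 to 71.2%). Within the 313 wide peaks, which share a library, Spearman's rho with width was 0.302 for fragments and 0.255 for fold enrichment. Median fold enrichment was 6.41 in the peaks up to 1250 bp and 11.4 in the 19 over 2000 bp.

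**Figure D2:**
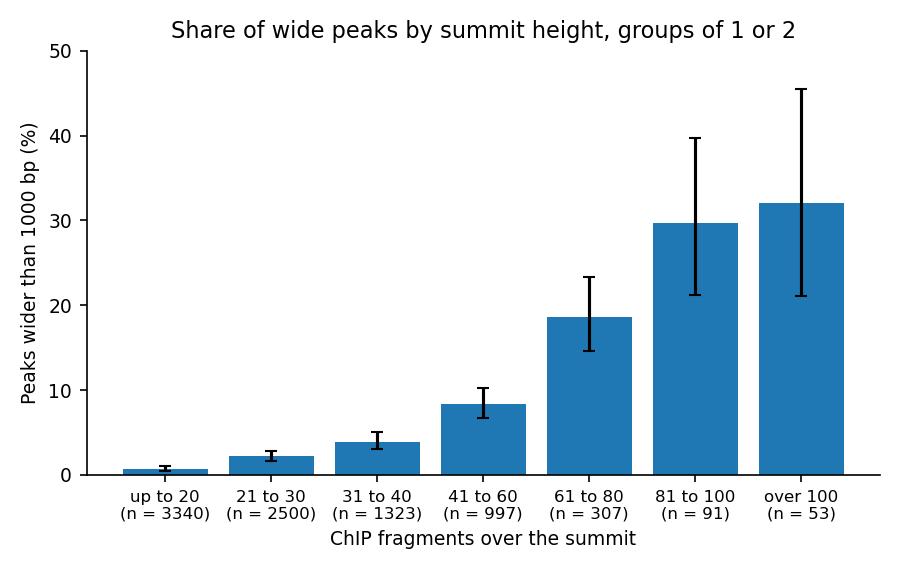
Bars give the percentage of peaks wider than 1000 bp among peaks in groups of 1 or 2, by the number of ChIP fragments over the summit, with n peaks per bin. Error bars are 95% Wilson intervals, and the share climbs from 0.659% to 32.1%.

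The 3 highest fold enrichments were found in groups of 2. The peak at chr17:18621797-18622959 had a fold enrichment of 22.5 with 165 fragments over its summit, and chr9:132095850-132097156 had 22.3 with 131. Next came chr2:74210611-74211963 with 18.1, chr14:75744924-75746044 with 17.2 and chr22:19868550-19869653 with 17.1. These 5 were only 1104 to 1353 bp wide, so the strongest were not the widest. Among peaks standing alone the highest value was 17.3 at chr17:75250763-75252073, over 93 fragments. It was followed by chr1:169750155-169751190 (16.9), chr14:50328159-50329675 (16.6), chr4:3485913-3487563 (15.9) and chr9:131901971-131903055 (15.1). The chromosome 1 peak of this set was the one with a neighbour 12642 bp away, just beyond the stitching gap.

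A small set was wide but weak. In 18 of the 313 wide peaks the q-value exceeded 0.05. Their width ran from 1011 to 1643 bp, their fold enrichment from 2.44 to 3.94 and their fragment number from 15 to 32. Fold enrichment and fragment number are summit values, and signal along the rest of each peak was not measured. Of the 18 peaks, 14 stood alone, beside 188 of all 313 wide peaks. The lowest fold enrichments among peaks standing alone were 2.44 at chr1:173836799-173837967, 2.49 at chr5:175963660-175964980 and 2.61 at chr5:10160-11735. The last of these differed from the rest. It starts at position 10160 of its chromosome, had 313 fragments over the summit, and its local background was 41.1 times the genome-wide level. Its −log10 q was 15.3, so it was not among the 18.

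Local background was similar in wide and narrow peaks. It had a median of 1.14 times the genome-wide level in the wide peaks (95% interval of the median 1.00 to 1.19) and 1.09 times in the narrow ones. The order of these medians was not stable, since among peaks with a q-value of 0.05 or less, grouped anew, it was 1.14 times in wide and 1.17 times in narrow peaks. It sat at the genome-wide level, the lowest value MACS2 allows, in 123 wide peaks (39.3%), against a background of 36.7% of all peaks. In 82 wide peaks (26.2%, against 24.4% of all peaks of chromosomes 1 to 22) it equalled a whole number of control fragments. With 2 such fragments it was already 1.83 times the genome-wide level, so low multiples rest on few fragments. A background raised to 2 times the genome-wide level or more was found at 51 wide peaks (16.3%, 12.6 to 20.8%), near the background of 15.2%. At 4 wide peaks (1.28%, against 1.39% of all peaks of chromosomes 1 to 22) it was 5 times that level or more. Besides the chromosome 5 peak these were chr20:32922463-32923933 (8.22 times), chr1:109739839-109741143 (5.48 times) and chr11:102216554-102218264 (5.02 times). Without the peaks of raised background, the median fold enrichment of the remaining 262 wide peaks was 7.56, against 3.93 in narrow peaks treated in the same way.

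The summit was not used by the rule, but its position is scaled below by the width, which the rule did use. Its distance from the centre of the peak, on a scale from 0 at the centre to 1 at an edge, had a median of 0.425 in the wide peaks (95% interval of the median 0.386 to 0.477) and 0.277 in the narrow ones. It was nearer to an edge than to the centre in 130 wide peaks (41.5%, 36.2 to 47.1%) and in 23.1% of narrow peaks (22.2 to 24.0%), with a background of 23.8%. The summit lay in the central 20% of the width in 69 wide peaks (22.04%, 95% Wilson interval 17.8 to 26.96%). The same was found in 37.6% of narrow peaks (36.6 to 38.7%) and in 36.3% of all peaks of chromosomes 1 to 22. Wide peaks in groups of 3 or more were intermediate, with 27.3% (23.2 to 31.7%). In bp, the summit of a wide peak was a median of 340 bp from the nearer edge, and that of a narrow peak 109 bp. A narrow peak leaves its summit less room in bp than a wide one does.

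The summits were spread over both sides. They lay left of the centre in 164 of the 313 wide peaks (52.4%, 46.9 to 57.9%), near the 52.6% of all peaks of chromosomes 1 to 22. In the widest peak it lay 4194 bp into the 4443 bp, close to the right edge, and in chr12:53318807-53321456 it lay 194 bp from the left edge. In both, most of the width lay on one side of the summit.

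**Figure D3:**
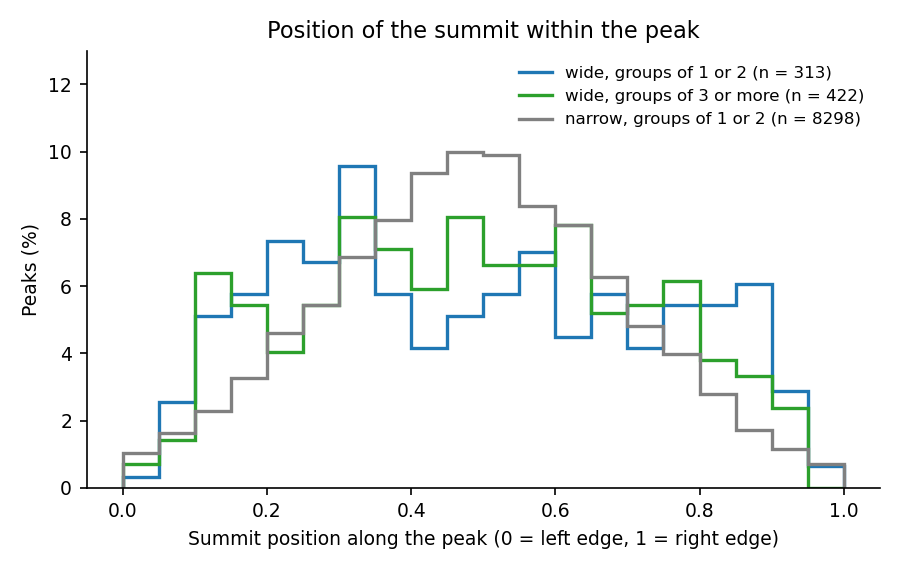
Lines give the percentage of peaks in each 20th of the peak width by the position of the summit, from the left edge (0) to the right edge (1), for wide peaks in groups of 1 or 2 (blue, n = 313), wide peaks in groups of 3 or more (green, n = 422) and narrow peaks in groups of 1 or 2 (grey, n = 8298). The grey line rises towards the centre, where the blue line does not.

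Groups of 2 held 2833 narrow and 125 wide peaks, so a narrow partner was the usual case for any peak. The 125 wide peaks formed 115 groups with a narrow partner and 5 groups in which both peaks were wide. Partners of a single wide peak had a median width of 397 bp (range 184 to 949 bp), and 63 of the 115 (54.8%) reached a q-value of at most 0.05, near the share among all peaks. The gap between partners had a median of 1690 bp (interquartile range 481 to 3893.5 bp), and in 39 groups (33.9%, 25.9 to 43.0%) it was at most 1000 bp. In groups of 2 narrow peaks the median gap was 2752 bp and 29.5% of gaps (27.1 to 32.0%) were at most 1000 bp.

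The wide peak had the higher fold enrichment in 96 of the 115 groups (83.5%, 95% Wilson interval 75.6 to 89.2%). The median of the difference, wide minus narrow, was 2.92, and in 47 groups the wide peak had at least 2 times the value of its partner. In groups of 2 narrow peaks, the wider peak had the higher value in 66.5% of 1357 groups (64.0 to 69.0%). It had at least 2 times the value of its partner in 202 of 1359 such groups, those of equal width included. The summit of the wide peak faced its partner in 60 of 115 groups (52.2%, 43.1 to 61.1%), and the interval spans 50%.

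Where both partners were wide, the wider peak had the higher fold enrichment in 2 of 5 groups. The group with the largest summed width (2760 bp) lay at chr8:103818159-103823629, where the wider peak had a fold enrichment of 13.7 over 73 fragments and the other 4.11 over 20. At chr11:64948659-64951532 the values were 10.5 and 6.47, across a gap of 423 bp. At chr14:93502204-93510774 the order was turned, with 6.12 in the wider peak and 16.5 in the other.

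Wide peaks lay nearer to other peaks than narrow ones did. For wide peaks standing alone, the median distance to the nearest other peak was 31024 bp (95% interval of the median 27176 to 33488 bp), and for narrow peaks standing alone it was 51873 bp (49573 to 53893 bp). These medians were not weighted for the mix of chromosomes. A few wide peaks were far from any other. The most remote was chr1:221612726-221613785, 923116 bp from its nearest neighbour, with a fold enrichment of 8.99 over 47 fragments. The next were chr15:63188392-63189597 (606198 bp, fold enrichment 9.38) and chr6:20402910-20404287 (407227 bp, 3.75). The first 2 of these had a local background of 1.00 times the genome-wide level and a q-value below 0.01, whereas the chromosome 6 peak had 18 fragments and a q-value above 0.05.

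The larger groups were also closer. A peak of a group of 3 or more lay within 50 kb of 75 wide peaks (24.0%, 95% Wilson interval 19.6 to 29.0%), beside 12.0% of narrow peaks (11.3 to 12.7%) and a background of 12.4% of all peaks in groups of 1 or 2. The median distance was 170947 bp for wide peaks and 483790 bp for narrow peaks. Peak-rich chromosomes hold more of both, so the narrow peaks were weighted to the chromosomes and group sizes of the wide peaks, and their share was then 12.9%. Another wide peak lay within 50 kb of 60 wide peaks (19.2%, 15.2 to 23.9%) and of 7.64% of narrow peaks, or 8.99% after the same weighting; the background was 8.06%. The wide peaks outside larger groups thus stood near those groups more often than narrow peaks did, although most were farther than 50 kb from any. This difference was not tested, since neighbouring peaks are not independent.

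**Figure D4:**
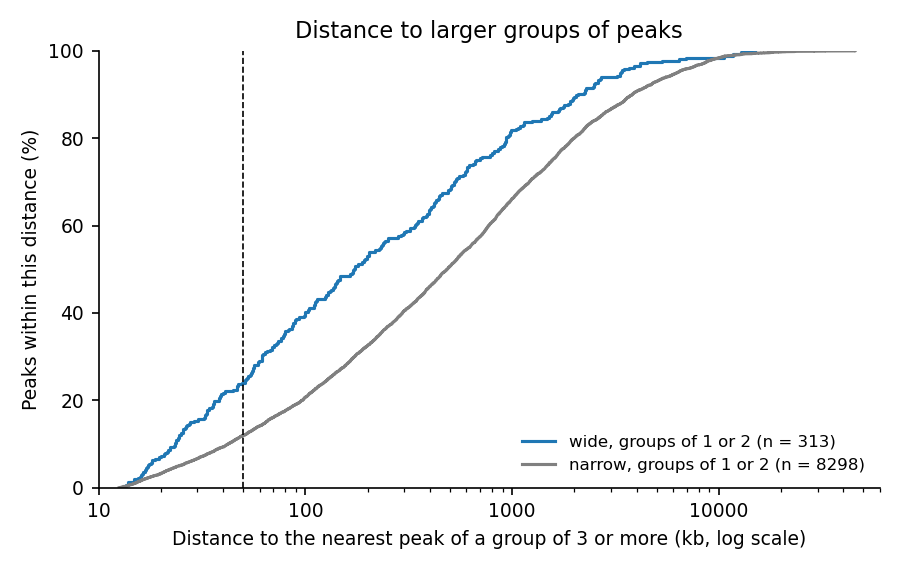
Lines give the percentage of peaks lying within a distance (kb, log scale) of the nearest peak of a group of 3 or more, for the 313 wide peaks (blue) and the 8298 narrow peaks (grey), and the dashed line marks 50 kb. The blue line lies above the grey one at that distance, at 24.0% against 12.0%.

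Wide peaks were found on every chromosome from 1 to 22, at 0.113 per Mb between the first and last peak of each chromosome (95% Poisson interval 0.101 to 0.126). Chromosome 22 had the densest set, with 12 wide peaks and 0.344 per Mb (0.178 to 0.601). Next were chromosome 19, with 19 peaks and 0.323 (0.195 to 0.505), and chromosome 17, with 23 and 0.284 (0.180 to 0.425). These intervals overlap, so their order is not settled. Chromosome 13 had 2 wide peaks and 0.0209 per Mb (0.00253 to 0.0754), and chromosome 4 had 8 and 0.0419 (0.0181 to 0.0827). The share of wide peaks among the peaks in groups of 1 or 2 varied less, from 1.17 to 6.83%, around 3.63% in all (3.26 to 4.05%). The interval of a single chromosome lay above this value on 3 of 22 chromosomes and below it on 0. The 3 were chromosome 19 (6.83%, 4.42 to 10.4%), chromosome 22 (6.74%, 3.90 to 11.4%) and chromosome 11 (5.74%, 3.98 to 8.23%). They were not adjusted for the 22 chromosomes looked at, and chromosome 17, at 4.21% (2.82 to 6.24%), was not among them.

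**Figure D5:**
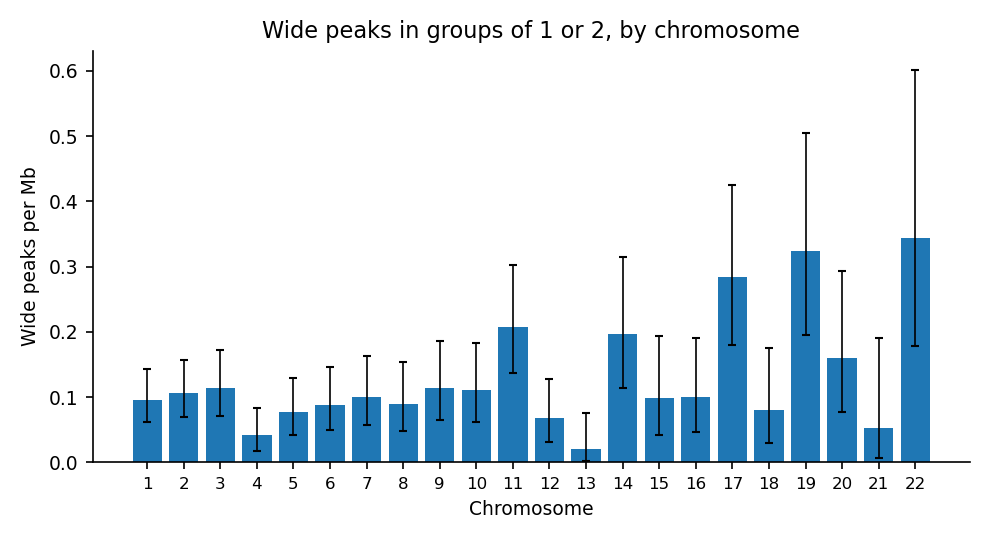
Bars give the number of wide peaks in groups of 1 or 2 per Mb between the first and last peak of each chromosome, and error bars are exact 95% Poisson intervals. Chromosomes 22, 19 and 17 stand highest and chromosome 13 lowest, with 0.0209 per Mb.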

How the data were processed

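The authors mapped ChIP-seq reads to hg19 (GRCh37) with Bowtie2 and called peaks in uniquely mapped reads with MACS2 under a p-value threshold. The list ran up to a p-value of 0.00984, and no pooling is stated. Fold enrichment was deposited as a ratio, scaled ChIP pileup over local background at the summit, with a pseudocount of 1 on each. Significance was deposited as −log10 p-value and −log10 q-value. The score, as deposited, was 10 times the −log10 p without its decimals (100% of lines).

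Width was the number of bases from the first to the last position of a peak, both included. Fold enrichment and p-value depend on the same 2 quantities in MACS2, so these, fragments over the summit and local background, were solved for. With the ChIP pileup scaled by 0.381 and the background at no less than 1.10, whole fragment numbers were obtained for all 13808 peaks (tolerance 0.01 on −log10 p). On simulated data, at least 99.99% of fragment numbers in each of 2 lists came back exact (7973 peaks in the smallest list). The simulated backgrounds did not reach the high values, such as 41.1 times the genome-wide level, found at some peaks. The methods describe single-end reads and give an approximate sequencing yield for the libraries in general. The read number of this library was not used here, and the control's identity is not given in the sources used here. Shares have Wilson intervals, densities exact Poisson intervals and medians order-statistic intervals.

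The peak set and its measures were chosen with earlier results of these data known. Named peaks were, for wide peaks standing alone, the 5 widest, the 5 of highest and 3 of lowest fold enrichment and the 3 farthest from another peak, for groups of 2 the 5 widest, the 5 of highest fold enrichment and the 3 groups of 2 wide peaks with the largest summed width, and peaks within 5 bp of the width threshold. The 4 peaks whose background was 5 or more times the genome-wide level were chosen after their values were seen. The reference at hand was GRCh38, so 2 of 11 planned results, position against genes and sequence features, were not run. Alternatives were stricter q-values, other widths, gaps, group sizes and distances, chromosome X, and a filter on background. The software was Python 3.11.15 with matplotlib 3.10.9, pandas 2.3.3, scipy 1.17.1 and numpy 2.4.6.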

Additional observations from a re-analysis of the deposited data

Results flagged for a closer look

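The main comparisons used chromosomes 1 to 22 only, and chromosome X was added in an alternative setting. Outside chromosomes 1 to 22 lay 22 further peaks wider than 1000 bp. On chromosome X there were 5, with a median fold enrichment of 4.23 and a local background of 1.00 to 1.27 times the genome-wide level, and 3 of them lay in groups of 1 or 2. A decoy contig, built of human sequence that the assembly lacks, carried 12 with a median fold enrichment of 1.80 and a median background of 78.5 times that level. Unplaced contigs carried 5, with 2.52 and 28.3 times.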

How the results depend on the processing

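Of 51 alternative values for 10 results, 31 stayed in range (1.5 times for the count, the 95% interval for the others), 19 moved and 1 changed direction. That one was the median local background with q-values of 0.05 or less, at 1.14 times the genome-wide level in wide and 1.17 times in narrow peaks, and the cause was not tested. Without raised background both medians were 1.00. In all 26 alternative values for the following measures, the wide peaks stayed higher than the narrow peaks. The measures were fold enrichment, the share with q-values of 0.05 or less, the summit's distance from the centre and the share near larger groups. The alternatives for the share within 50 kb of larger groups were chosen after seeing the data. No paired analysis was possible because 1 library was analysed. The 2 other settings for genes and sequence were not run.

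Against 313 wide peaks, 604 were wider than 800 bp, 64 wider than 1500 bp, 188 in groups of 1 and 125 in groups of 2, by construction. With a width over 1500 bp, median fold enrichment was 8.43, the q-value share 96.9%, the background 1.34 times, fragments 65.5, the wide peak higher than its partner in 92.6% of groups, and density on chromosome 22 was 0.0860 per Mb. With 800 bp, fold enrichment was 6.47 and the q-value share 90.6%. Median fold enrichment was 8.04 with q-values of 0.01 or less and 7.69 without raised background when the remaining peaks were grouped anew (303 wide peaks, against 262 and 7.56 with the groups kept). The q-value share was 96.8% in groups of 2 only. With q-values of 0.05 or less, the nearest other peak was 36890 bp away, and 16.8% of wide peaks lay within 50 kb of a larger group, beside 7.35% of narrow peaks. Fewer peaks remain at that threshold, so more wide peaks count as isolated (394). The share near larger groups was 12.5% within 25 kb and 40.3% within 100 kb, beside 5.17% and 20.8% of narrow peaks. With 1 library, which of the weaker wide peaks would recur cannot be shown.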
